A study of Mus musculus with 6 samples.

Results

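The genes described here encode 9 proteins that carry the signal from activating receptors at the plasma membrane: the Src family kinases Lck and Fyn, the paired kinases Syk and Zap70, the adaptors Lat and Lcp2 (SLP-76), the exchange factor Vav1 and the phospholipases Plcg1 and Plcg2. The data were chromatin immunoprecipitation and sequencing of Eomes, a T-box transcription factor, in natural killer (NK) cells. The cells came from pooled spleens of wild-type C57BL/6 mice 8 to 12 weeks old and had been cultured with IL-15, a cytokine that sustains NK cells, at 100 ng/mL over 4 days. There was 1 condition, studied in 3 experiments, each with 1 library immunoprecipitated (IP) with an anti-Eomes antibody and 1 input library, and each pair gave 1 peak list. No group lacked Eomes, so nothing here separates Eomes binding from other signal that the antibody or open chromatin can give.

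Members were chosen by name, as every peak whose deposited gene symbol was one of the 9. The symbol is that of the gene with the nearest transcription start. Such peaks numbered 48 of 37456 intervals in experiment 1, 36 of 33841 in experiment 2 and 74 of 46329 in experiment 3. Intervals sharing at least 1 bp were merged across the lists, which gave 97 regions at the 9 genes out of 84399 in all. Of the 97, 35 held a peak from at least 2 experiments and are called reproducible here. Of these, 21 were found in all 3 experiments and 14 in 2. Of all 20126 reproducible regions, 10328 were found in all 3 experiments and 9798 in 2.

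In lymphocytes, Src family kinases phosphorylate the paired tyrosines of receptor-associated chains such as CD3-zeta, the Fc receptor gamma chain and DAP12. Syk or Zap70 then docks on those tyrosines through its SH2 domains and phosphorylates Lat and Lcp2, on which Vav1 and phospholipase C gamma assemble. Phospholipase C gamma makes the second messengers that release calcium and activate protein kinase C and Ras, and Vav1 loads Rac with GTP to remodel actin. NK cells, unlike most T cells, use both Syk and Zap70, and Plcg2 has a leading part in their killing response.

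Each peak was described by its pileup, the number of IP fragments stacked at the summit, and by the fold enrichment that the authors' caller gave for the summit over local background. The smallest pileup in the lists was 8, 7 and 9 fragments in experiments 1, 2 and 3, so weaker binding was not detectable. Sequencing depth is unknown here. The lowest background recovered from the deposited values was 1.82, 1.32 and 2.33 fragments, respectively. Peak lists hold no expression, so cell identity could be read only from peaks at marker genes. Reproducible regions were present at 4 of 5 NK markers (Klrd1 had no peak), 2 of 5 T cell markers (Cd3d and Cd3e), 1 of 5 B cell markers (Pax5) and 3 of 5 myeloid markers (Csf1r, Adgre1 and S100a9). Such a region was present at 10 of the 20 markers together and at 44.8% of 21900 protein-coding genes. Cd3g, Ms4a1 and S100a8 had no peak in any list. A peak at a gene does not measure its expression. The part of other cell types in the results was not tested.

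The sequences printed next are from promoters over which a reproducible region lay. They show where letters of the T-box motif did and did not occur in the bases before the start. They run 5′ to 3′ on the coding strand, from 250 bases before the annotated start to the base before it, and end at the outermost RefSeq start of the gene where that came earlier. Capitals mark GGTGTG or its reverse complement CACACC. Sequences and coordinates are from RefSeq, build GRCm38.p6, the assembly behind mm10.
Plcg1, chr2:160731060-160731309, plus strand: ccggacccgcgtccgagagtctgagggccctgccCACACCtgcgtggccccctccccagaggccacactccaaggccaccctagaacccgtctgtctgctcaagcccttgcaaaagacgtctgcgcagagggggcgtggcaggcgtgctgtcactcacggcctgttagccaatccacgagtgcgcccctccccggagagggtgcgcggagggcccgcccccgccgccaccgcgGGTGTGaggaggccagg
Vav1, chr17:57278850-57279099, plus strand: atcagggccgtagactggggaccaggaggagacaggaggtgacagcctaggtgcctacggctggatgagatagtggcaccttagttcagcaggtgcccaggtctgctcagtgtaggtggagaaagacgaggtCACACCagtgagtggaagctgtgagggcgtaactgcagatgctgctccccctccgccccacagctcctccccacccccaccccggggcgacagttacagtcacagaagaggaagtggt
Fyn, chr10:39369549-39369742, plus strand: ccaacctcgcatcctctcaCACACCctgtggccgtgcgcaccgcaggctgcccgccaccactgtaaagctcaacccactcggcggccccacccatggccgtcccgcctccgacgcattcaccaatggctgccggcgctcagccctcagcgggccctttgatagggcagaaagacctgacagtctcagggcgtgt
Zap70, chr1:36761548-36761797, plus strand: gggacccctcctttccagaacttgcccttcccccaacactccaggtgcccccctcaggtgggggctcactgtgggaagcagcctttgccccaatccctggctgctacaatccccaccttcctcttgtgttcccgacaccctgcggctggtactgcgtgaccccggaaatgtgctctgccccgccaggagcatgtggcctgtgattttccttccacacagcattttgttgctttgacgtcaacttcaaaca
Lck outer start, chr4:129573642-129573891, minus strand: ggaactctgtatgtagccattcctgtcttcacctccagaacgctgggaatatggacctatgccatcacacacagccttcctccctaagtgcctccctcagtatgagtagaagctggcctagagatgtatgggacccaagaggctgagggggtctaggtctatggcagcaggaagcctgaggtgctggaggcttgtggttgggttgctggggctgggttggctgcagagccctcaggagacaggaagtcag
Lck inner start, chr4:129558373-129558622, minus strand: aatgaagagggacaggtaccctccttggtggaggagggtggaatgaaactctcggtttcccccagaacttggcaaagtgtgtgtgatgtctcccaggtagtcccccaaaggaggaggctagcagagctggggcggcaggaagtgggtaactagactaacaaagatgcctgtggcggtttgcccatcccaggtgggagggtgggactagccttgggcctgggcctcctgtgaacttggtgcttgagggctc
The stretches of Plcg1, Vav1 and Fyn hold the T-box letters, and those of Zap70 and of both Lck starts do not. Some summits lay past the printed bases. In experiments 1 and 2 they were 23 and 85 bp downstream of the start at Zap70, and 51 and 16 bp at Vav1. In experiment 2 the summit was 27 bp downstream of the outer Lck start. At both Lck starts the stretch also ran past the edge of the region.

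All 9 genes had a reproducible region, against 44.8% of 21900 protein-coding genes, and all 9 had a region found in all 3 experiments, against 29.8%. Promoter regions, within 3000 bp of any annotated start, were present at 8 of 9 genes, against 38.4%, with Lcp2 the exception. Regions outside promoters were present at 6 of 9, against 15.1%. The genes were chosen with earlier results of these data known, so these counts are a description. Peaks were spread unevenly over the set. Syk had 11 reproducible regions, Fyn 9, Lck 4, Plcg2 3, Zap70, Vav1 and Plcg1 2 each, and Lat and Lcp2 1 each. The median over genes with any was 1. At least 4 regions, as at Syk, Fyn and Lck, were found at 3.5% of protein-coding genes. At least 9 regions were found at 0.356% of protein-coding genes, and at least 11 at 0.164%. Fyn and Syk span 195639 and 66183 bp, and Lat 5879 bp, so the length over which peaks could fall differed widely.

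**Figure D1:**
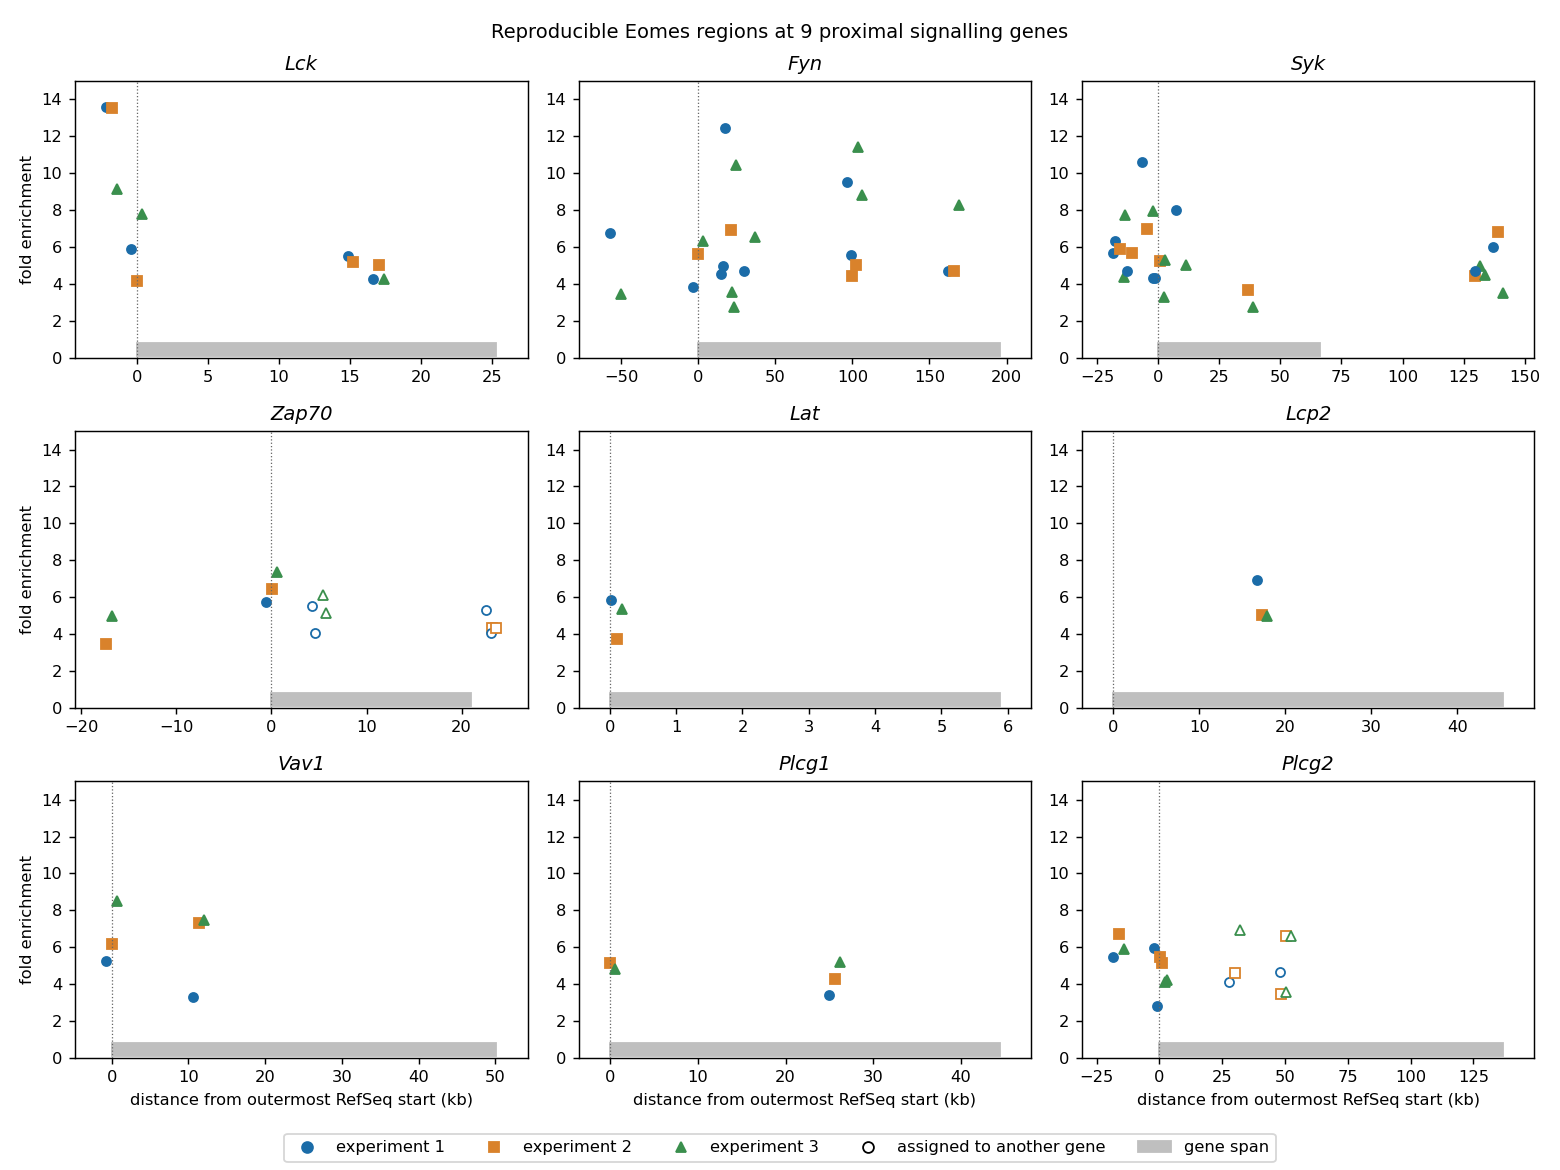
Fold enrichment (vertical axis, a ratio) of every reproducible region at the 9 genes against its distance in kb from the outermost RefSeq start, along the direction of transcription. Each symbol is 1 experiment, shifted slightly sideways by experiment, grey bars are gene spans, and open symbols are regions over or within 3000 bp of the gene that the deposited lists assign to another gene. The strongest Lck region lies just upstream of the start, whereas Syk and Fyn carry regions over more than 100 kb.

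Lck, the kinase that phosphorylates receptor chains at the outset of signalling, had the highest-ranked region of the set. The gene is transcribed from a distal and a proximal promoter, used mainly in mature T cells and in thymocytes, respectively. The leading region lay on chromosome 4 (129575099 to 129575674), with its summit 1755 bp upstream of the outermost start. Its pileup was 46, 32 and 64 fragments in experiments 1, 2 and 3, and its fold was 13.6, 13.5 and 9.12, a mean of 12.1 ± 2.56 (SD, n = 3). It stood at the 99.2, 98.4 and 98.1 percentile of the 3 lists by score, the deposited −log10 q-value. The lower fold in experiment 3 came with the highest pileup and with a background of 2.63 times that list's lowest. The 3 summits lay within 13 bp of each other.

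Both Lck starts in the RefSeq table were covered by a region. At the outer start, a region found in all 3 experiments (129572995 to 129573791) had pileups of 21, 18 and 34 and folds of 5.92, 4.15 and 7.78 (5.95 ± 1.81, SD, n = 3). The inner start lies 15269 bp downstream and is the second one printed above. There the region (129558274 to 129558522) had pileups of 18 and 11 in experiments 1 and 2, folds of 5.49 and 5.17, and no peak in experiment 3. One more region, 17013 bp downstream of the outer start, had folds of 4.24, 5.02 and 4.28. The background under that region was 2.44 times the lowest of the list in experiment 1 and 3.38 times in experiment 3, the highest ratio at any of the 9 genes. All 4 Lck regions thus fell in the authors' promoter class, 3 of them inside the gene and the strongest outside it.

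Fyn, the other Src family kinase of the set, had its strongest regions in introns. The leading region (chromosome 10, 39390584 to 39390944) lay in an intron, 20989 bp downstream of the start, with pileups of 42, 28 and 46 and folds of 12.4, 6.94 and 10.4 (9.94 ± 2.78, SD, n = 3). The second in rank (39469402 to 39469761) lay 99837 bp downstream, with folds of 9.54, 4.43 and 11.4. Its summits lay within 5 bp of each other, the closest match among member regions found in all 3 lists, although the pileup was only 14 in experiment 2 against 33 and 39 in experiments 1 and 3. Further on, a region at 102511 bp from the start had folds of 5.54, 5.0 and 8.85. At the promoter itself (39369386 to 39370224) the pileups were 18, 12 and 33 and the folds 3.85, 5.60 and 6.33 (5.26 ± 1.27, SD, n = 3). Experiment 2 was the lowest by pileup in all 4 of these regions. It also had the lowest median pileup over its whole list, 11 against 12 in experiment 1 and 14 in experiment 3. By fold it was the lowest in the intronic regions, whereas experiment 1 was the lowest at the promoter. A further region, at 165832 bp, was in the promoter class because of a start inside the gene, with folds of 4.69, 4.69 and 8.28. The other 4 Fyn regions, 3 in introns and 1 at 53903 bp upstream, had peaks in experiments 1 and 3 and none in experiment 2.

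Syk, a tandem SH2 kinase that myeloid cells, B cells and NK cells share, had 7 of its 11 reproducible regions in intergenic sequence. The leading region (chromosome 13, 52578010 to 52578408) lay 4470 bp upstream of the gene, with pileups of 31, 17 and 35 and folds of 10.6, 6.95 and 7.93 (8.49 ± 1.89, SD, n = 3). A region at 15629 bp upstream had folds of 6.30, 5.91 and 7.73. It was the other Syk region above the 90th percentile on average. Both regions near the gene start were weaker. The one found in all 3 experiments (52583105 to 52583677) had pileups of 14, 12 and 19 and folds of 4.34, 5.25 and 5.30. The other, at the outermost start (52582533 to 52583090), had folds of 4.30 and 3.31 and no peak in experiment 2. Inside the gene, an intronic region 9330 bp downstream had folds of 8.01 and 5.02 in experiments 1 and 3, and no peak in experiment 2.

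Beyond the end of Syk, 3 reproducible regions were assigned to it by proximity, at 129648, 131755 and 139019 bp from the start. The farthest (52721517 to 52721734) was found in all 3 experiments with pileups of 20, 15 and 24 and folds of 6.02, 6.81 and 3.51. In experiment 3 its background was 2.63 times the lowest of the list. No reproducible region was found between 36582 bp from the start and these, and the lists do not show which gene, if any, these sites act on.

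Zap70, which docks on the same phosphorylated tyrosines as Syk and predominates in T cells, had a promoter region in every experiment (chromosome 1, 36761568 to 36762051). Its pileups were 19, 17 and 28 and its folds 5.74, 6.46 and 7.39 (6.53 ± 0.83, SD, n = 3), with percentiles of 87.8, 87.1 and 91.0. The summits were spread over 200 bp, from 115 bp upstream of the start to 85 bp downstream. A second region assigned to Zap70, 17364 bp upstream, had folds of 3.46 and 4.98 in experiments 2 and 3.

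Counting by the assigned symbol left out regions over the body of Zap70. The lists assign 9 further regions over or within 3000 bp of the gene to Gm18828, a small gene model, and 4 of these were reproducible. In an interior stretch, regions at 4850 and 5210 bp from the start had folds of 5.49 and 6.11, and of 4.05 and 5.11, in experiments 1 and 3. Past the end of the gene, regions at 23177 and 23657 bp had folds between 4.05 and 5.33 in experiments 1 and 2. With these, reproducible regions at Zap70 numbered 6 in place of 2.

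Lat, the membrane scaffold on which phospholipase C gamma and Grb2 gather, had 1 reproducible region, over its promoter (chromosome 7, 126369469 to 126369710). Its pileups were 22, 13 and 23 and its folds 5.82, 3.70 and 5.33 (4.95 ± 1.11, SD, n = 3). The summits lay within 21 bp of each other, but the rank was uneven, at the 90.02, 32.7 and 82.3 percentile. In experiment 2 the background was 2.10 times the lowest of that list.

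Lcp2, which encodes the cytosolic adaptor SLP-76, was the member with no reproducible promoter region. Its reproducible region (chromosome 11, 34063852 to 34064373) lay in intron 3 of 20, 17299 bp downstream of the start. The pileups were 22, 14 and 20 and the folds 6.91, 5.02 and 4.96 (5.63 ± 1.11, SD, n = 3). Closer to the start, experiment 3 alone had a peak (34050152 to 34050397), with a pileup of 24 and a fold of 6.47. Its summit lay 3341 bp downstream of the start, and its rank, the 87.2 percentile, was higher than that of the intronic region in the same list (77.1).

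Vav1, the exchange factor for Rac, had a promoter region and an intronic region, both found in all 3 experiments. The promoter region (chromosome 17, 57278851 to 57279571) had pileups of 19, 15 and 29 and folds of 5.27, 6.18 and 8.51 (6.65 ± 1.67, SD, n = 3). The intronic region (57290211 to 57290688), 11365 bp downstream, had pileups of 12, 22 and 26 and folds of 3.29, 7.29 and 7.46 (6.01 ± 2.36, SD, n = 3). Its percentile was 21.4 in experiment 1 against 92.3 and 90.3 in the other experiments. The promoter region outranked the intronic region in experiments 1 and 3, and the order was the opposite in experiment 2. Without experiment 1, the intronic region led at Vav1, with a fold of 7.38 ± 0.12 (SD, n = 2).

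Plcg1 and Plcg2 encode the enzymes that cleave the membrane lipid PIP2. The leading region of Plcg1 had the lowest mean percentile of the 9 leading regions, 65.1, taken over the 2 experiments with a peak. Its promoter region (chromosome 2, 160731057 to 160731656) had pileups of 11 and 15 and folds of 5.17 and 4.80 in experiments 2 and 3 (4.99 ± 0.26, SD, n = 2), and no peak in experiment 1. A region 25620 bp downstream of the start (160756342 to 160757261), near a start inside the gene, was found in all 3 experiments with pileups of 10, 10 and 17 and folds of 3.38, 4.25 and 5.20. The promoter region was not reproducible without experiment 2 or without experiment 3. The inner region then led, with folds of 3.49 ± 0.15 and 3.82 ± 0.61 (SD, n = 2 each).

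Plcg2 had 3 reproducible regions, each found in all 3 experiments. The leading region lay upstream of the gene (chromosome 8, 117481767 to 117482133), 16265 bp from the start, with pileups of 18, 15 and 24 and folds of 5.49, 6.72 and 5.91 (6.04 ± 0.63, SD, n = 3). Its percentiles of 85.7, 85.4 and 84.8 were the most even of the 9 leading regions. The promoter region (117498096 to 117498832) had folds of 5.98, 5.48 and 4.09, with summits spread over 556 bp. A region just inside the gene, 1022 bp from the start, had folds of 2.78, 5.12 and 4.20. As at Zap70, many peaks over the gene carry another symbol. Of 21 such regions, 20 were assigned to Gm27361, a gene model inside Plcg2, and 1 to Sdr42e1, and 3 of the 21 were reproducible. The strongest (117548441 to 117548742), 50316 bp into the gene, had pileups of 13, 15 and 32 and folds of 4.64, 6.62 and 6.60 (5.95 ± 1.14, SD, n = 3), close to the leading assigned region. Counted this way, Plcg2 had 6 reproducible regions in place of 3.

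**Figure D2:**
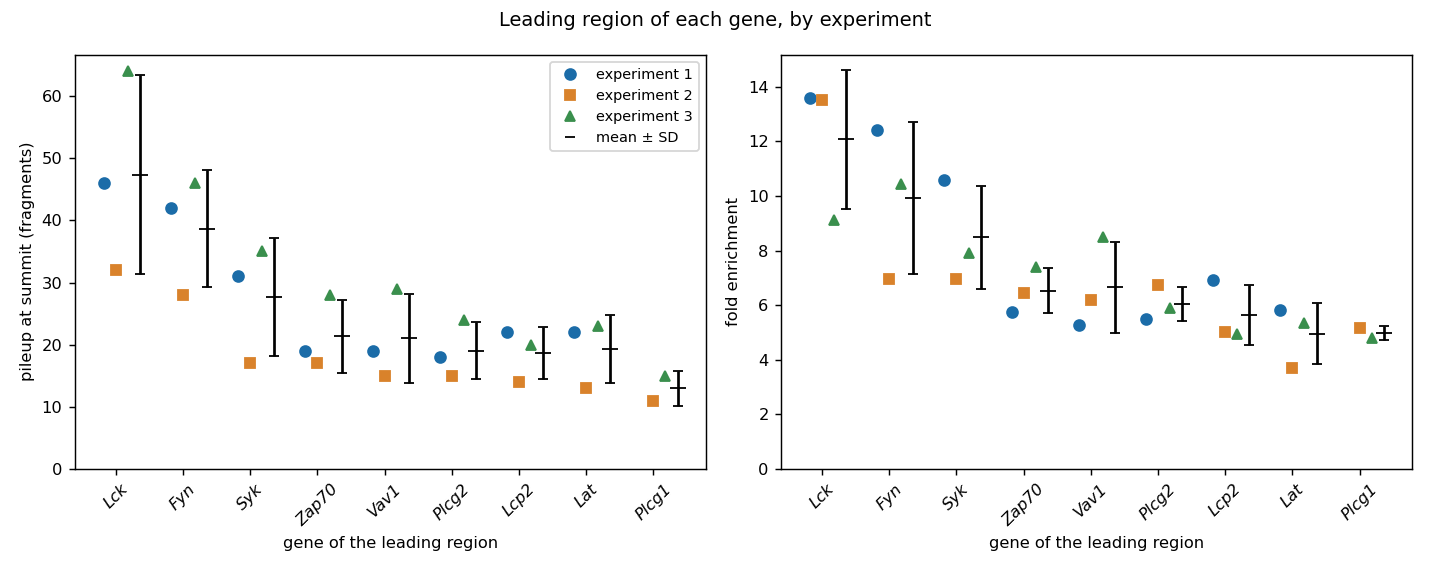
Pileup at the summit in fragments (left) and fold enrichment (right) of the leading region of each gene, with 1 symbol per experiment and the mean ± SD beside them. Genes are ordered by mean percentile, and Plcg1 has no value in experiment 1. By pileup Lck is the highest in every experiment, while by fold Lck leads in experiments 1 and 2 and Fyn in experiment 3.

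Across genes, the leading regions were chosen by their own rank, so their order is a description. By mean fold it ran Lck (12.1), Fyn (9.94), Syk (8.49), Vav1 (6.65), Zap70 (6.53), Plcg2 (6.04), Lcp2 (5.63), Plcg1 (4.99) and Lat (4.95). No step between neighbours in that order was larger than the larger SD of the pair. Lck, Syk and Plcg2 led with a region upstream of the gene and Fyn and Lcp2 with an intronic one, whereas Zap70, Lat, Vav1 and Plcg1 led with a region over the gene start.

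By class, 15 of the 35 reproducible regions (42.9%) were in promoters, 10 (28.6%) in introns and 10 (28.6%) in intergenic sequence, against 59.1%, 18.0% and 18.1% of all 20126 reproducible regions. Fyn and Syk supplied 8 of the 10 intronic and 8 of the 10 intergenic regions. Within each experiment, the mean percentile of promoter regions differed from that of the others by -11.1 points in experiment 1 (70.9 against 82.0), by -1.45 in experiment 2 (67.2 against 68.6) and by 7.85 in experiment 3 (77.3 against 69.5). The mean difference was -1.57 ± 9.48 points (SD, n = 3; two-sided exact permutation p = 0.75, where 0.25 is the smallest that 3 pairs allow). The difference was smaller than the spread between experiments, and its sign was not the same in all of them. Only regions with a peak in the experiment entered its means. These were 14 promoter regions in each experiment, and 17, 13 and 19 others in experiments 1, 2 and 3. The regions averaged thus differed between experiments.

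**Figure D3:**
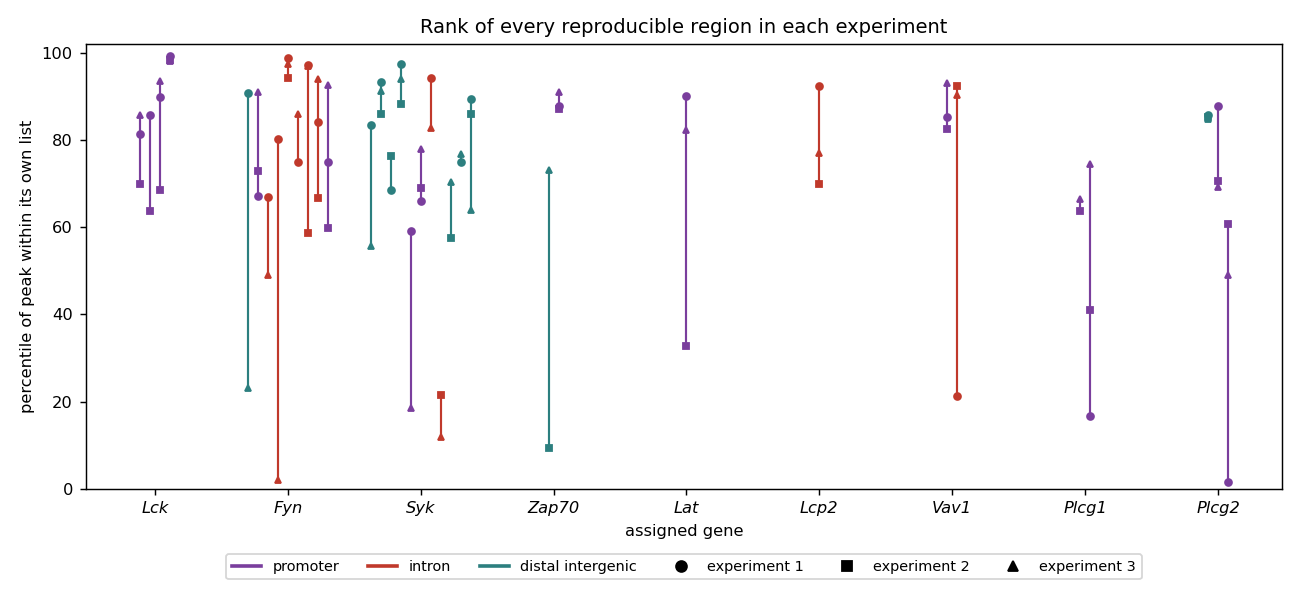
Percentile of each reproducible region within its own peak list by −log10 q-value (vertical axis), for each gene, with 1 symbol per experiment joined by a line and coloured by annotation class. The leading regions of Lck, Fyn and Syk stay above 88 in every experiment, while others, such as an intronic region of Vav1, range from 21.4 to 92.3.

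The median of the mean percentiles over the 35 regions was 75.9, against 64.8 over all reproducible regions, and 4 of the 35 (11.4%) averaged at least the 90th percentile, against 14.3%. These 4 were the leading regions of Lck, Fyn and Syk and a second region of Syk. Summit positions in the 21 regions found in all 3 lists had a median spread of 46 bp, against 60 bp over 10328 such regions, and 11 of the 21 (52.4%) lay within 50 bp, against 43.6%. Background over 2 times the lowest of its list was found under 2 of 31 member peaks in experiment 1, 3 of 27 in experiment 2 and 4 of 33 in experiment 3. Over peaks in all reproducible regions the shares were 10.7%, 8.43% and 10.3%. Of the 14 regions found in 2 experiments, 8 lacked a peak in experiment 2, 4 in experiment 1 and 2 in experiment 3. Experiment 2 has the shortest list, with 33841 intervals. The same split was not made over all 9798 regions found in 2 experiments, so these counts have no background share.

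Promoter sequence was searched for letters known from T-box, ETS and RUNX factors. The RefSeq table held 13 windows for the 9 genes, each from 250 bases before to 50 bases after a start. Of these, 9 lay at least partly under a reproducible region. The T-box letters GGTGTG, on either strand, were found in 3 of the 9 windows, those of Plcg1, Vav1 and Fyn, and in 19.0% of all 32851 windows. The longer form GGTGTGA, which contains the shorter one, was found in 2 of the 9, Plcg1 and Vav1, and in 3.98% of all windows. In Plcg1 the match began 17 bp upstream of the start, and the centre of GGTGTGA was 21.5 bp from the nearest summit, that of experiment 2. In Vav1 it began 119 bp upstream, on the other strand, with the nearest summit 88.5 bp away. In Fyn the match to GGTGTG began 231 bp upstream of the window's start, 12 bp from the nearest summit. That start lies 56 bp downstream of the outermost one used for the distances above. Of the 4 windows under no reproducible region, 3 also held GGTGTG: those of both inner starts of Zap70 and of the inner start of Syk.

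The ETS letters CCGGAA were found in 1 of the 9 windows, that of Zap70, 89 bp upstream of the start, against 14.9% of all windows. The RUNX letters TGTGGT, which can overlap the T-box letters, were found at the outer Lck start (58 bp upstream) and at Lat (5 bp upstream, other strand), against 16.8% of all windows. The Lat window's start lies 137 bp downstream of the outermost one. Over all genes, GGTGTG was held by 17.5% of the 7941 windows under a reproducible region and by 19.5% of the others. For GGTGTGA these shares were 3.75% and 4.05%, for CCGGAA 34.9% and 8.53%, and for TGTGGT 12.5% and 18.1%. A match describes the letters in these windows and shows no binding site. The leading regions of Lck, Fyn, Syk, Plcg2 and Lcp2 lay outside every window, so their sequence was not searched. Where a region ran past its window, as at Zap70, the rest of it was not searched either.

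**Figure D4:**
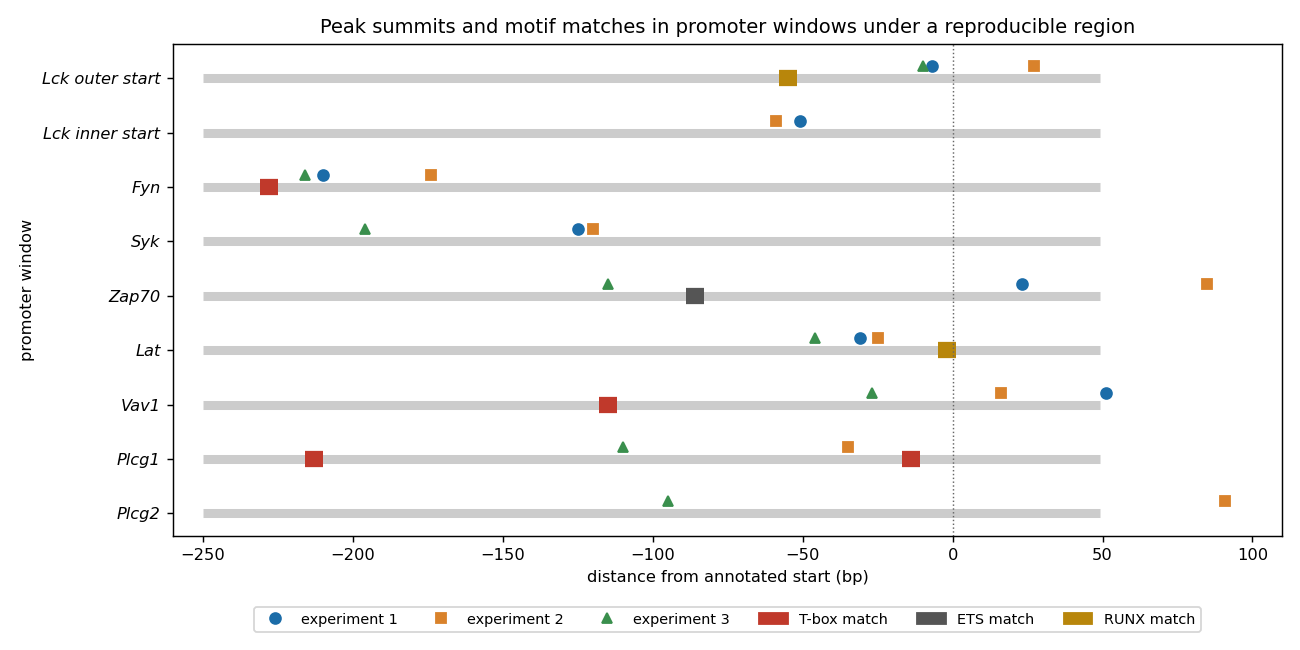
Peak summits of the 3 experiments (symbols) and motif matches (coloured blocks) in the 9 promoter windows of the set that lie under a reproducible region, by distance in bp from the annotated start. The grey bars run from 250 bp before to 50 bp after the start. T-box matches appear in Fyn, Vav1 and Plcg1 only, and the Fyn match lies 12 bp from a summit.

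Other genes of the same pathway were less evenly covered. In a list of 52, a reproducible region was assigned to 38 (73.1%, against 44.8% of protein-coding genes). A further 12 had only regions that were each found in 1 experiment, and 2 had no peak. The remaining Src family members and Csk, the kinase that restrains them, were covered at 7 of 7. Adaptors were covered at 12 of 18, exchange factors at 7 of 8 and genes of second messenger signalling at 11 of 14. Among the last, the calcium channel gene Itpr2 had 14 reproducible regions and Dgkz 7. At Itpr3, Orai1 and Dgka, no region was found in more than 1 experiment. Vav3 too had no reproducible region, against 1 for Vav2 and 2 for Vav1.

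The 5 highest-ranked leading regions of that list were at Pag1, Lax1, Fgr, Dgkz and Csk. Pag1, an adaptor that recruits Csk to the membrane, had an intergenic site 53230 bp upstream of its nearest start with folds of 13.0, 18.9 and 28.8 (20.2 ± 7.99, SD, n = 3). Lax1, a membrane adaptor known as a negative regulator, had a promoter region with 11.3, 16.3 and 13.4 (13.7 ± 2.51). Fgr, a Src family kinase, had a promoter region with 5.80, 14.1 and 19.7 (13.2 ± 6.98). Dgkz, which removes diacylglycerol, had a region 1844 bp from a start with 8.86, 10.6 and 13.1 (10.8 ± 2.14). Csk had an intronic region with 7.59, 11.3 and 8.96 (9.30 ± 1.90). The Pag1 region stood above the leading Lck region in fold in experiments 2 and 3 and below it in experiment 1.

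The remaining 62 member regions were found in 1 experiment each: 39 in experiment 3, 16 in experiment 1 and 7 in experiment 2. Of all 64273 regions of 1 experiment, 26898 were in experiment 3, 20537 in experiment 1 and 16838 in experiment 2. Reproducible regions made up 36.1% of member regions and 23.8% of all regions. The 62 had a median fold of 3.86, against 3.91 for all regions of 1 experiment. Fyn held 21 of them, 17 of these from experiment 3, which has the longest list. Syk held 16, with 10 from experiment 1. Vav1 held 11, with folds from 2.60 to 6.36, and the other genes between 1 and 5 each.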

How the data were processed

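Peak lists from 3 Eomes IP libraries, each called against the input of the same experiment per the sample labels, were used. Reads were aligned with Novoalign to mm10 and peaks annotated with ChIPseeker, per the submitters' processing notes. For the peak caller, name and settings alike: not given in the sources used here. The deposited pileup is a signal, read as IP fragments at the summit from its column name. The deposited fold enrichment is the authors' ratio of IP to background. Both −log10 columns (p-value and q-value) are deposited scores of the authors.

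Where an interval had several sub-peaks, only that with the best −log10 q-value was used. Intervals sharing at least 1 bp were merged (Python 3.11.15, pandas 2.3.3), and regions with peaks from at least 2 experiments were called reproducible. The merging was tested on simulated data and checked with bedtools 2.31.1, which also found 20126 reproducible regions. The percentile of a peak is its rank by −log10 q-value within its own list. The highest-ranked peak gave a region its annotation. The leading region of a gene is that with the highest mean percentile. That mean is taken over the experiments with a peak in the region, so a missing peak does not lower it. An experiment's value in a region is that of its highest-scoring peak. Background was recovered as (pileup + 1) / fold − 1. With it, a Poisson tail gave the authors' −log10 p-value within 0.000336. Folds are given as the mean ± SD over experiments as a description. Gene spans, starts and promoter sequences came from RefSeq GRCm38.p6, and 9 of 9 genes matched by symbol. Promoter letters were searched on both strands.

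The labels call the experiments separate but do not say more about what they share, so the SD measures the spread between these experiments. The 9 genes and the lists were chosen with earlier results of these data known. Named are all 9 genes, their reproducible regions, and the 5 pathway genes whose leading regions ranked highest. Others with the most or no regions were named after their values were seen. A gene group of the pathway list is counted in the totals of that list and is otherwise not reported here. No test across genes was made, since there was 1 condition. Alternatives concerned the score threshold, the overlap, the experiments used and the assignment of genes. Input libraries have no separate values in the lists.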

Additional observations from a re-analysis of the deposited data

How the results depend on the processing

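All 9 genes kept a reproducible region under every alternative tried except a −log10 q-value of at least 5, where 8 did. The 35 reproducible regions fell to 18 at that threshold, to 21 when all 3 experiments were required, and to between 22 and 29 when 1 experiment was left out, with 22 without experiment 3. The 15 promoter regions fell to 8 at a −log10 q-value of at least 5, and to 13 when any 1 experiment was left out. When all 3 experiments were required, 29.8% of protein-coding genes kept a region, and 10328 of all 20126 regions remained. The other alternatives were run for the 9 genes only, so their counts have no background share. The mean difference between promoter and other regions ran from -14.7 to 1.29 points when 1 experiment was left out, and turned positive (1.29) without experiment 1. Leading folds moved by more than their SD at Plcg1 alone, to 3.49 without experiment 2 and 3.82 without experiment 3. In both of these settings, and at Vav1 without experiment 1, a different region led. Counting regions over gene spans extended by 3000 bp gave 32. Removing peaks with a background over 2 times the lowest of their list gave 33, a setting chosen after seeing the data, as were the alternatives for the promoter difference. Promoter and other regions were compared within experiments. For IP against input, no paired analysis was possible because both are combined in a list and the lists give no values for the input alone. The smallest pileups, 7 to 9 fragments, limit what could be detected.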

Other observations

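Some stretches held peaks of several experiments that did not overlap and so did not count as reproducible. In an intron of Fyn, 135863 bp from the start, 6 peaks from all 3 experiments lay within 2584 bp (chromosome 10, 39505523 to 39508106), with folds from 2.70 to 4.20. At Vav1, peaks of experiments 2 and 3 lay side by side within 566 bp (chromosome 17, 57278253 to 57278818) just upstream of the promoter region, with folds of 4.25 and 4.70. A second Vav1 pair lay 14712 bp upstream, with folds of 3.71 in experiment 1 and 6.36 in experiment 3. Such stretches, with gaps of at most 1000 bp, numbered 5, and the others were at Fyn and Syk.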
